A study of Anas platyrhynchos with 16 samples.

Results

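Whether 3 days of caging changed gene expression differently in the pituitary than in the hypothalamus of Shanma ducks was examined over all 16 RNA sequencing libraries of the series. The quantity reported is the tissue difference of the cage effect: the log2 change from floor-water to caged ducks in the pituitary minus the same log2 change in the hypothalamus. A negative difference means that the caged minus floor-water value was lower in the pituitary than in the hypothalamus. It was fitted for 17010 genes, once with the 4 groups alone (the fit without covariates) and once with each library's share of transcripts of the other tissue as a covariate (the share-adjusted fit).

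The birds were 113 days old and came from 15 ducks per housing. Caged ducks had been moved on day 110 into 3 cages of a multilayer system, each 100 × 45 × 50 cm, and received 16 h of light a day. Floor-water ducks stayed in a system of floor and water under natural light, so that housing and lighting differ together and cannot be told apart. Each of the 4 groups (caged hypothalamus, floor-water hypothalamus, caged pituitary and floor-water pituitary) has 4 libraries. Whether a library is 1 bird, and from which cage, is not stated in the labels, and p-values therefore reflect library-to-library spread that may be technical.

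The hypothalamus is the brain region that controls the pituitary through releasing hormones carried in portal blood, and the pituitary answers with growth hormone, prolactin, gonadotropins, thyrotropin and adrenocorticotropin. Both lie in contact at the median eminence, where tanycytes and ependymal cells line the ventricle and where blood vessels and connective tissue sheaths run between them. The gland also holds a non-hormonal framework of fibroblasts, pericytes, vessels and folliculostellate cells.

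Library totals ran from 38853215 to 67175356 counts, and the tissue labels held for every library. GH1, the growth hormone gene, was at 61100 to 173000 CPM in pituitary libraries and at 24.8 to 14300 CPM in hypothalamus libraries. CPM are counts scaled to the library total multiplied by the TMM factor of that library. The factors ran from 0.7595 in floor-water pituitary library 3 to 1.154 in caged hypothalamus library 3. Statements on the overlap of groups for single genes refer to these scaled values. SNAP25, a neuronal synaptic vesicle gene, was at 944 to 1850 CPM in hypothalamus libraries and at 62.4 to 161 CPM in pituitary libraries. The share of the other tissue, a median over 113 pituitary-restricted or 211 hypothalamus-restricted genes, was 3.62%, 0.763%, 4.87% and 19.0% in caged hypothalamus libraries 1 to 4 and 1.45%, 0.125%, 0.373% and 0.554% in floor-water hypothalamus libraries. Pituitary libraries had 0.428%, 5.44%, 0.258% and 0.141% in the caged and 0.927%, 7.20%, 0.693% and 5.88% in the floor-water group. The caged minus floor-water log2 share was 3.18 in the hypothalamus (two-sided exact permutation p = 0.0571) and -2.08 in the pituitary (p = 0.171, the same test), where the smallest p that the design allows is 0.0286. The caged minus floor-water share thus had opposite signs in the 2 tissues, with groups that overlapped in both, so the share moves with the difference. Bulk RNA cannot tell fewer cells of a type from less RNA per cell.

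Other libraries stood apart in markers of 1 or more cell types. Caged hypothalamus library 2 held TTR, the choroid plexus transthyretin gene, at 12800 CPM against 5.34 to 408 CPM in the other 3 libraries of its group. Floor-water pituitary libraries 1 and 2 held the smooth muscle genes TAGLN at 144 and 147 CPM and MYH11 at 60.6 and 72.5 CPM, against 4.42 and 3.24 CPM and 2.07 and 1.41 CPM in libraries 3 and 4. Libraries 1 and 2 were also higher in other markers. The mean log2(FPKM + 1) of microglia and macrophage markers was 3.38 and 3.11, against 2.58 and 2.31 in libraries 3 and 4. For endothelium markers it was 2.75 and 3.06, against 2.50 and 2.26. Several results below are given with and without these libraries. Others leave out the 4 libraries with a share over 5%. The pituitary shares left are then 0.141% to 0.428% in caged and 0.693% and 0.927% in floor-water libraries, without overlap. In the share-adjusted fit, that omission therefore cannot separate housing from the share in the pituitary.

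**Figure D1:**
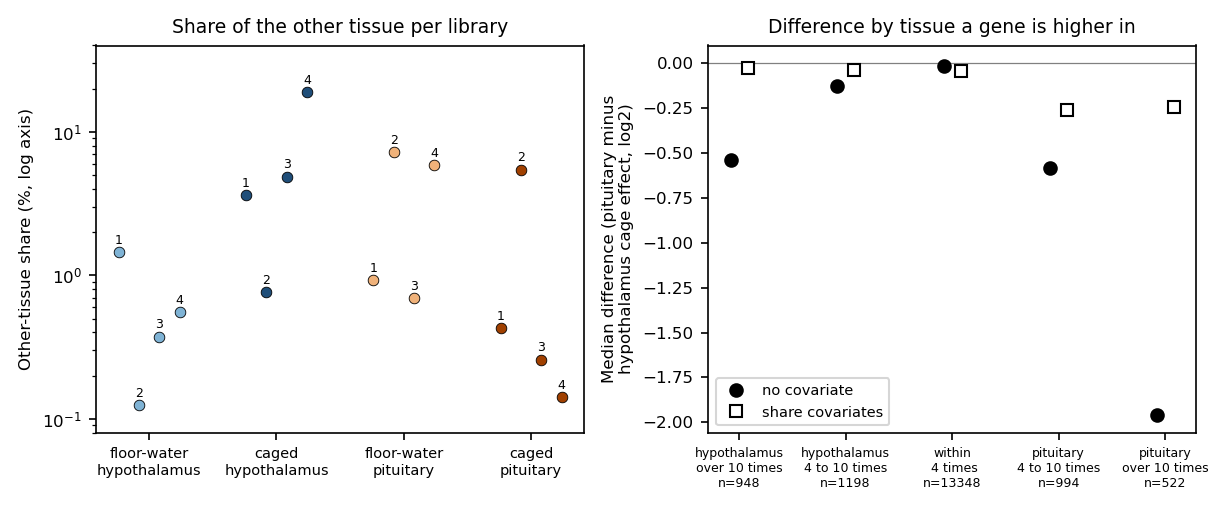
Left, the share of other-tissue transcripts in each library (percent, log axis, library number above each point), from 0.125% to 19.0%. Right, the median tissue difference of the cage effect (log2) over genes grouped by the tissue in which they are higher, from the fit without covariates (filled circles) and the share-adjusted fit (open squares): the most negative median, -1.96, is that of the 522 genes over 10 times higher in the pituitary, and it is -0.246 with the covariates. The covariates are computed from tissue-restricted genes, so the outer classes are not independent of them.

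No gene differed between the tissues at an adjusted p under 0.05 in the edgeR quasi-likelihood test (0% of 17010, smallest adjusted p 0.139 without covariates and 0.187 with them). At an unadjusted p under 0.05 the fit without covariates held 1226 genes (7.21%), of which 314 (1.85%) had a higher and 912 (5.36%) a lower value in the pituitary contrast. The share-adjusted fit held 1207 (7.1%), with 539 (3.17%) higher and 668 (3.93%) lower. The genes at an unadjusted p under 0.05 in the same direction in both fits numbered 496, or 40.5% of the first set and 41.1% of the second, with 137 higher and 359 lower. DESeq2 called 131 genes at an adjusted p under 0.05 without covariates (0.79%, 10 higher and 121 lower) and 63 with them (0.37%, 21 higher and 42 lower), and 21 were called in both with the same sign. The number of calls thus depended on the tool.

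The size of the difference varied with the tissue in which a gene is expressed. Among the 522 genes over 10 times higher in the pituitary, the median log2 change was 1.88 in the hypothalamus and 0.0395 in the pituitary, and 38.7% stood at an unadjusted p under 0.05 for the difference. The median difference of these genes was -1.96 without covariates and -0.246 with them, and the share at p under 0.05 was 11.1% with them. The 948 genes over 10 times higher in the hypothalamus had a median difference of -0.541, which was -0.0264 with the covariates. The share covariates are themselves computed from genes restricted to 1 tissue. Genes far higher in 1 tissue are therefore not independent of them, and the move of these 2 medians towards 0 is partly built in. For the 13348 genes within 4 times between tissues the medians were -0.0152 and -0.0435, close to the -0.0620 and -0.0515 of all genes tested. Of the 131 genes that DESeq2 called, 41 were over 10 times higher in the pituitary and 55 within 4 times.

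Within each tissue, few genes passed the adjusted threshold, while 1187 (6.98%) in the hypothalamus and 1329 (7.81%) in the pituitary stood at an unadjusted p under 0.05. In the hypothalamus, CERKL rose, 1 of 17010 genes (0.00588%), by 2.44 ± 0.302 (log2, SE) with an edgeR adjusted p of 0.011. In the pituitary, CHRNA6, CTXND1 and LOC110353286 fell (0.0176%), with an edgeR adjusted p of 0.0161 each. The log2 change was -2.83 for LOC110353286 and a fitted -6.36 for CHRNA6, which has 4 counts in the caged group, and CTXND1, with 0 counts there, is given below as a bound. Share-adjusted, 0 genes passed in the hypothalamus (732 at an unadjusted p under 0.05, 4.3%, of which 463 or 2.72% were higher) and 2 passed in the pituitary (0.0118%; 1533 at an unadjusted p under 0.05, 9.01%, of which 803 or 4.72% were lower), CHRNA6 at -6.01 and LOC113842748 at -9.40, each with an edgeR adjusted p of 0.0377. Across the 11930 genes with at least 1 CPM in every group, the cage effects of the 2 tissues had a Pearson correlation of 0.0787 and a Spearman correlation of 0.101, which describe genes and not replicates. With the covariates these were 0.0152 and -0.0983, and the effects had opposite signs in 46.6% of genes without and 55.9% with the covariates.

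Genes whose 4 caged libraries all lay on one side of the 4 floor-water libraries in each tissue were few. In 6 genes (0.0353%) the caged libraries were all higher in the hypothalamus and all lower in the pituitary: SPAG6, AK7, PIGQ, LOC101794959, annotated as acyl-CoA dehydrogenase family member 11, LOC101799801, annotated as a thyroid hormone transporter of the SLCO1C1 kind, and LOC101804235, a KCNK16-like potassium channel. In 2 genes (0.0118%), MAP2K4 and FAM110B, the order was the reverse, and 8 genes (0.047%) were higher and 3 (0.0176%) lower in both tissues. Within a single tissue, caged libraries were all higher for 579 genes (3.4%) and all lower for 337 (1.98%) in the hypothalamus, and all higher for 215 (1.26%) and all lower for 225 (1.32%) in the pituitary. The genes with opposite order were picked by that pattern, so the values below are a description. LOC101794959 was at 10.4, 13.5, 13.8 and 9.61 CPM in caged and 5.14, 7.35, 5.07 and 4.34 CPM in floor-water hypothalamus. In the pituitary it was at 25.7, 14.7, 17.8 and 36.8 CPM in caged and 37.4, 40.2, 70 and 63.0 CPM in floor-water libraries, and its difference was -2.26 without and -3.01 with the covariates. MAP2K4, a kinase that activates JNK, was at 30.9, 77.2, 32.2 and 73.7 CPM in caged and 94.4, 82.9, 101 and 92.1 CPM in floor-water hypothalamus. Caged libraries 1 and 3 of that gene were the low ones, and in the pituitary it was at 35.0 to 38.8 CPM in caged and 25.8 to 34.9 CPM in floor-water libraries. Its difference was 1 with all libraries, in log2 units.

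**Figure D2:**
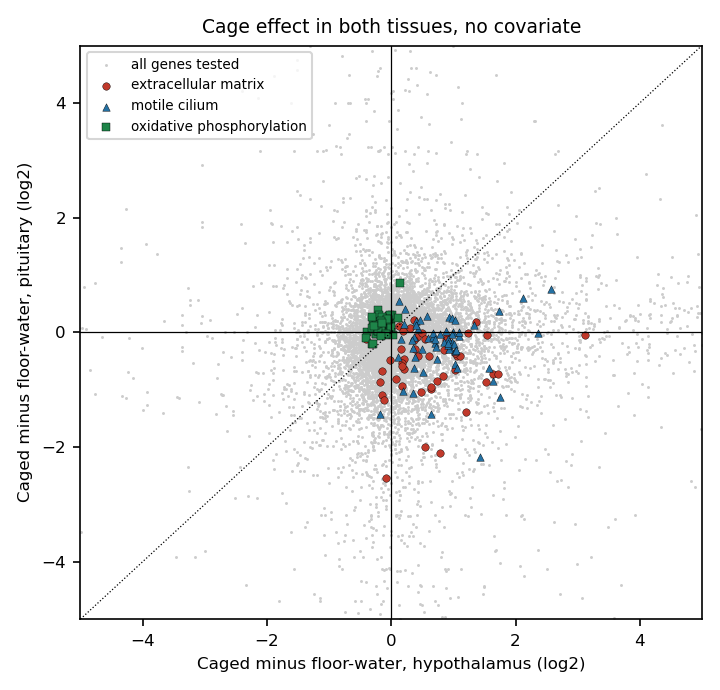
Log2 change from floor-water to caged ducks in the hypothalamus (x axis) and the pituitary (y axis) without covariates for all genes tested (grey; 277 genes lie outside the axes) and for 3 gene lists. Most of the 49 extracellular matrix genes (red) and the 58 motile cilium genes (blue) lie to the lower right of the dotted line of equal effect, and 62 of the 63 oxidative phosphorylation genes (green) lie to its upper left.

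Extracellular matrix genes had the most members at an unadjusted p under 0.05. Of 49 measured members, 25 had a lower value in the pituitary contrast at that level and 0 a higher, against 5.36% and 1.85% of all genes, and 47 of 49 differences were below 0, with a median of -1.02 against -0.0620 for all genes. The median log2 change was 0.496 in the hypothalamus and -0.419 in the pituitary, and 36 members were above 0 in the former and below 0 in the latter. DESeq2 called 5 of them, COL6A2, COL1A2, COL3A1, OGN and MFAP5, and with the covariates 1, OGN. Share-adjusted, 16 members stood lower at an unadjusted p under 0.05, against 3.93% of all genes, and the median was -0.925.

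COL1A2, a chain of type I collagen, was at 29.8, 73.9, 55.1 and 41.0 CPM in caged and 20.9, 18.6, 16.2 and 13.9 CPM in floor-water hypothalamus, so that all caged libraries were above all floor-water ones. Pituitary libraries held 182, 191, 94.9 and 98.4 CPM in caged and 391, 297, 261 and 84.9 CPM in floor-water libraries, with floor-water library 4 below every caged library. Its difference was -2.39 ± 0.548 (SE) with an edgeR adjusted p of 0.281 and a DESeq2 adjusted p of 0.00535. With the covariates it was -2.62, and the DESeq2 adjusted p was 0.0722. COL6A2, a chain of type VI collagen, was at 3.68, 6.90, 6.37 and 7.52 CPM in caged and 1.57, 1.45, 2.74 and 1.62 CPM in floor-water hypothalamus, and at 77.1, 73.2, 50.3 and 49.7 CPM and 174, 103, 104 and 33.7 CPM in the pituitary. Its groups did not overlap in the hypothalamus and overlapped in the pituitary, and its difference was -2.45 ± 0.537 (SE), with an edgeR adjusted p of 0.281. COL3A1, the type III collagen chain, had a difference of -2.37 without and -1.49 with the covariates.

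Members of other roles lay the same way. OGN, a small leucine-rich proteoglycan of collagen fibrils, was at 2.87, 10.3, 5.45 and 1.37 CPM in caged and 0.444, 0.236, 0.846 and 0.754 CPM in floor-water hypothalamus. In the pituitary it was at 5.10 to 13.6 CPM in caged and 4.91 to 13.4 CPM in floor-water libraries. Its groups overlapped there and not in the hypothalamus, where the lowest caged library was above the highest floor-water one, and the log2 changes were 3.12 in the hypothalamus and -0.048 in the pituitary; DESeq2 called it in both fits. FN1, fibronectin, had the other composition: 41.0 to 65.2 CPM in caged and 38.9 to 60.9 CPM in floor-water hypothalamus, but 28.6 to 44.0 CPM in caged and 44.0 to 92.8 CPM in floor-water pituitary, for a difference of -0.894. MMP2, a gelatinase that cuts matrix, had -1.69, LAMB1 and LAMA2, laminin chains of basement membrane, -1.58 and -1.18, and TNC, tenascin C, -2.55. SPARC, a matrix-associated glycoprotein, stood at -0.517 with an unadjusted p of 0.0675.

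Markers of mural cells and fibroblasts moved with these genes. The 18 measured markers include COL3A1, OGN, DCN and LUM of the matrix list. Of the 18, 10 had a lower value in the pituitary contrast at an unadjusted p under 0.05, against 5.36% of all genes. In 17 markers the difference was below 0, and the median over the 18 markers was -1.13. Share-adjusted, 7 of the markers stood lower, against 3.93% of all genes, and their median was -0.889. Their mean log2(FPKM + 1) ran from 2.05 to 3.51 in floor-water pituitary, where libraries 1 and 2 stood at 3.29 and 3.51, from 2.02 to 2.50 in caged pituitary, from 1.81 to 2.28 in caged hypothalamus and from 1.56 to 1.75 in floor-water hypothalamus, and none of the 18 was at 0 in any library. ACTA2, smooth muscle actin, was at 417, 346, 46.0 and 29.6 CPM in floor-water and 21.7, 76.5, 15.1 and 22.9 CPM in caged pituitary. Without floor-water pituitary libraries 1 and 2, 4 of the 18 markers stood lower at an unadjusted p under 0.05 and their median was -0.356, while 12 of the 49 matrix genes did, with a median of -0.684. Without caged hypothalamus libraries 2 and 4, 20 matrix genes did, with a median of -0.9, and without the 4 libraries with a share over 5%, 30 did, with a median of -1.24. Over all genes, 820 of 17816, 770 of 17871 and 904 of 17641 stood lower under these omissions, in that order. In the share-adjusted fit the matrix counts under these omissions were 9, 4 and 8 lower, against 832, 462 and 1031 over all genes. For the 18 markers they were 2, 1 and 2 lower, and 2, 0 and 1 higher. Over all genes, 966, 328 and 1038 were higher. The part of mural cells and fibroblasts in the matrix result was not tested.

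Motile cilium genes, which build and move the cilia of ependymal cells, were the other list with many members. Of 58 tested members, 23 had a lower value in the pituitary contrast at an unadjusted p under 0.05 and 0 a higher. Over all genes these shares were 5.36% and 1.85%. The difference was below 0 in 56 members, and the median over the list was -1. The median log2 change was 0.815 in the hypothalamus, where 29 members were higher at an unadjusted p under 0.05 (5.68% of all genes were), and -0.131 in the pituitary, where 6 were lower (4.91% of all genes were). Share-adjusted, 21 stood lower, against 3.93% of all genes, and the median was -1.09. DESeq2 called 5 members, SPAG6, AK7, TEKT3, TEKT1 and FOXJ1, and 0 with the covariates.

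The summed level of the cilium list split the hypothalamus groups narrowly. Its mean log2(FPKM + 1) was 1.81, 1.85, 1.79 and 1.41 in caged and 1.40, 1.29, 1.20 and 1.17 in floor-water hypothalamus, so that caged library 4, with the highest share of pituitary transcripts, lay just above floor-water library 1. In the pituitary it was 1.58, 1.58, 1.47 and 1.49 in caged and 1.62, 1.82, 1.53 and 1.72 in floor-water libraries, and the groups overlapped. FOXJ1, the transcription factor that turns on the motile cilium genes, was at 17.1, 18.6, 15.2 and 5.17 CPM in caged and 6.73, 6.27, 2.77 and 2.22 CPM in floor-water hypothalamus. In the pituitary it was at 5.21, 4.53, 5.44 and 3.10 CPM in caged and 4.09, 6.92, 8.15 and 13.6 CPM in floor-water libraries. Its groups overlapped in both tissues, and its difference was -2.49 ± 0.641 (SE), with an edgeR adjusted p of 0.314.

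SPAG6, a protein of the central pair of the axoneme, had the smallest p of the list. It was at 21.5, 27.1, 21.9 and 22.8 CPM in caged and 18.7, 16.2, 12.8 and 12.1 CPM in floor-water hypothalamus. In the pituitary it was at 19.8, 25.7, 22.1 and 15.3 CPM in caged and 57.2, 54.2, 26.1 and 84.1 CPM in floor-water libraries. Caged libraries were all higher in the hypothalamus and all lower in the pituitary, and its difference was -2.06 ± 0.385 (SE), with an edgeR adjusted p of 0.18 and a DESeq2 adjusted p of 0.000608. Without floor-water pituitary library 3, the lowest of its group, the difference was -2.29 and the edgeR adjusted p 0.0224. AK7, an adenylate kinase of cilia, was at 9.06, 7.92, 7.74 and 5.22 CPM in caged and 5, 4.87, 3.95 and 4.14 CPM in floor-water hypothalamus, and at 3.23 to 4.84 CPM and 5.10 to 5.64 CPM in caged and floor-water pituitary. Its difference was -1.20 without and -1.35 with the covariates.

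Other cilium genes had more of their difference in the hypothalamus. CFAP43, needed for the axoneme of motile cilia, was at 4.64 to 8.63 CPM in caged and 1.89 to 3.57 CPM in floor-water hypothalamus, and at 3.97 to 5.06 CPM and 3.77 to 4.91 CPM in the pituitary. Its difference was -1.20. CFAP52 had log2 changes of 0.994 and 0.009 in hypothalamus and pituitary, and the dynein genes DNAH9 and DNAI1 had differences of -0.895 and -1.02. CFAP298, a dynein assembly factor outside the list, was at 77.9 to 96.4 CPM in caged and 59.9 to 72.9 CPM in floor-water hypothalamus, and at 111 to 122 CPM and 119 to 157 CPM in the pituitary, for a difference of -0.708 ± 0.161 (SE). It was among the genes of similar level in both tissues and had a DESeq2 adjusted p of 0.0175. TEKT3 and TEKT1, filament proteins of the axoneme, had differences of -2.21 and -3.60.

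Choroid plexus markers, another ciliated epithelium, had a median difference of -0.968 over 13 members, with 3 lower at an unadjusted p under 0.05 (5.36% of all genes were). Their mean log2(FPKM + 1) was 2.49 to 3.77 in caged and 2.42 to 2.69 in floor-water hypothalamus, and 1.45 to 1.74 in caged and 1.32 to 2.10 in floor-water pituitary, where up to 3 of the 13 were at 0 in a library. Without caged hypothalamus libraries 2 and 4, the cilium list had 22 lower members and a median of -1.08, and without floor-water pituitary libraries 1 and 2, 21 of 59 tested and -0.98. Over all genes, 770 of 17871 and 820 of 17816 were lower. In the share-adjusted fit without caged hypothalamus libraries 2 and 4, 7 members stood lower and the median was -0.737, and without the 4 libraries with a share over 5%, 8 did, with a median of -0.917. Over all genes, 462 of 17871 and 1031 of 17641 did. In the latter refit 20 members were above and 39 below 0, against 3 and 55 with all libraries. The part of choroid plexus in the cilium result was not tested beyond these omissions.

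**Figure D3:**
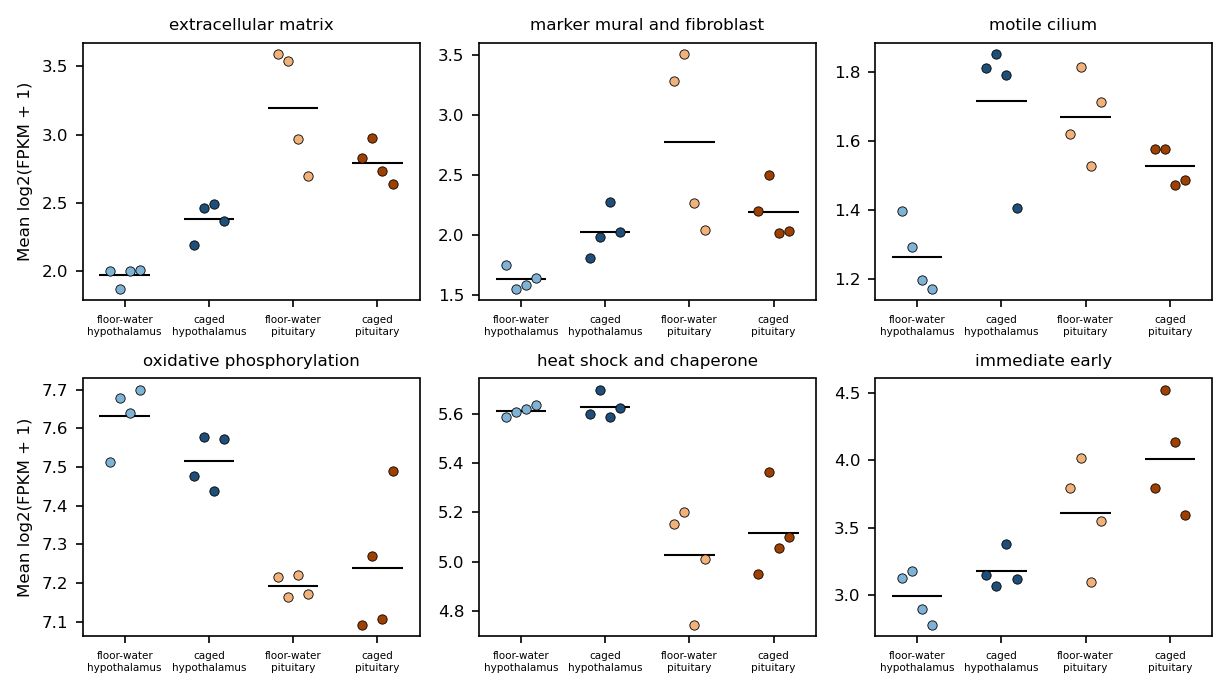
Mean log2(FPKM + 1) over the members of 6 gene lists in each library (points) with the group mean (line); the y axes differ and do not start at 0. The extracellular matrix, mural and fibroblast, and motile cilium lists are higher in caged than in floor-water hypothalamus libraries without overlap, and in the pituitary the matrix and mural lists have their 2 highest libraries in the floor-water group.

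Secreted Wnt antagonists were among the single genes with the smallest p. WIF1, Wnt inhibitory factor 1, was at 14.4, 29.9, 78.1 and 32.7 CPM in caged and 13.1, 9.83, 6.06 and 8.81 CPM in floor-water hypothalamus. Its pituitary values were 36.3, 12.2, 49.9 and 20.4 CPM in caged and 102, 157, 62.5 and 49.8 CPM in floor-water libraries, so that the groups did not overlap in the hypothalamus and overlapped narrowly in the pituitary. Its difference was -3.68 ± 0.733 (SE), with an edgeR adjusted p of 0.237 and a DESeq2 adjusted p of 0.000185, and -3.62 with the covariates. SFRP1, secreted frizzled-related protein 1, was at 5.40 to 16.5 CPM in caged and 2.48 to 5.51 CPM in floor-water hypothalamus, and at 11.7 to 14.8 CPM and 18.2 to 52.6 CPM in the pituitary. Its groups did not overlap in the pituitary and overlapped narrowly in the hypothalamus, and its difference was -2.64 without and -2.98 with the covariates.

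Other lower genes with small p had several roles. MYL9, a smooth muscle myosin light chain, was at 5.73, 7.82, 8.21 and 8.38 CPM in caged and 2.97, 4.54, 2.11 and 4.06 CPM in floor-water hypothalamus. Its pituitary values were 14.8, 23.0, 14.1 and 23.9 CPM in caged and 124, 91.0, 38.7 and 22.1 CPM in floor-water libraries, where libraries 1 and 2 were the highest. Its difference was -3 ± 0.595 (SE), with an edgeR adjusted p of 0.237, and -1.81 without these 2 libraries. MGP, matrix Gla protein, an inhibitor of calcification, was at 8.51 to 31.8 CPM in caged and 1.36 to 5.09 CPM in floor-water hypothalamus, without overlap, and its difference was -3.17 without and -1.72 with the covariates. PDPN, podoplanin, stood at -3 and -3.12 in the 2 fits, and PAPLN, the matrix protein papilin, at -1.04 and -1.14. ADAMTS8, a secreted metalloproteinase, was at 14.4 to 34.8 CPM in caged and 52.8 to 70.1 CPM in floor-water pituitary without overlap, and its difference was -1.58. ADIRF, an adipogenesis regulatory factor, had -1.55, and LMCD1, a transcriptional co-regulator, had -1.21 without and -2.32 with the covariates. TF, serotransferrin, stood at -3.18 without and -4.53 with the covariates, with caged hypothalamus library 2 at 2180 CPM and the other 3 at 233 to 335 CPM. Without that library the share-adjusted value was -2.34.

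The genes called within a tissue had their difference from that tissue. CERKL, a ceramide kinase-like gene, was at 1.76, 3.30, 1.98 and 3.71 CPM in caged and 0.584, 0.413, 0.584 and 0.400 CPM in floor-water hypothalamus, and at 8.71 to 18.8 CPM and 11.1 to 14.2 CPM in the pituitary. The hypothalamus groups did not overlap, and its difference was -2.29 ± 0.405 (SE), with an edgeR adjusted p of 0.139. CHRNA6, a nicotinic acetylcholine receptor subunit, was at 0, 0.0691, 0 and 0 CPM in caged and 0.430, 1.70, 1.99 and 2.65 CPM in floor-water pituitary, and also lower in caged than in floor-water hypothalamus, at 1.14 to 2.30 and 2.80 to 3.74 CPM. CTXND1, a cortexin family gene, had 0 counts in all 4 caged pituitary libraries and 0.560, 0.773, 0.161 and 0.320 CPM in the floor-water ones. It was at least 32.1-fold lower in caged than in floor-water pituitary, taking a floor of 3 counts over the caged group. In the hypothalamus it was at 2.20 to 6.82 CPM in caged and 3.62 to 6.29 CPM in floor-water libraries, which overlapped.

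**Figure D4:**
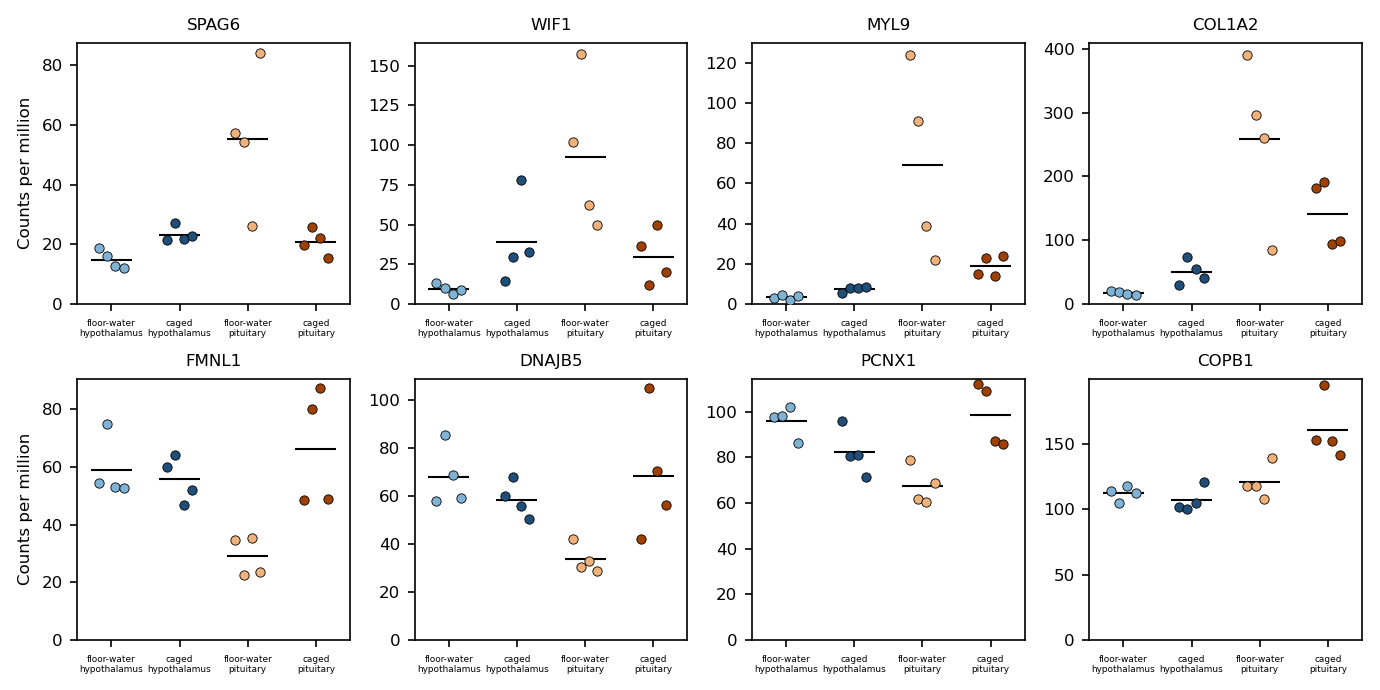
CPM in each library (points) with the group mean (line) for 8 genes; each y axis starts at 0. SPAG6, WIF1, MYL9 and COL1A2 (top) are higher in every caged than in every floor-water hypothalamus library and have their highest values in floor-water pituitary, and FMNL1, DNAJB5, PCNX1 and COPB1 (bottom) have higher means in caged than in floor-water pituitary.

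Genes with a higher difference were fewer. FMNL1, a formin that assembles actin filaments, was at 48.5, 80.2, 87.5 and 49.1 CPM in caged and 34.8, 22.6, 35.4 and 23.8 CPM in floor-water pituitary, without overlap, and at 46.9 to 64.2 CPM and 52.9 to 75.1 CPM in the hypothalamus. Its difference was 1.27 ± 0.311 (SE), with an edgeR adjusted p of 0.281 and a DESeq2 adjusted p of 0.0222. PCNX1, a pecanex family membrane protein, was at 112, 109, 87.0 and 86.1 CPM in caged and 78.9, 61.6, 60.5 and 68.8 CPM in floor-water pituitary, again without overlap, and its difference was 0.769. DISP3, a dispatched family membrane protein, CBARP, which regulates voltage-gated calcium channels, and NKAIN4, a partner of the sodium-potassium pump, had differences of 0.802, 1.40 and 0.892. RAB5IF and GOLT1B, the latter a Golgi transport protein, had 0.592 and 0.623, and their pituitary groups did not overlap. DESeq2 called PCNX1, FMNL1, DISP3, CBARP and DNAJB5 without the covariates, and none of these 5 with them.

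Coat proteins of Golgi vesicles were among the higher genes named from the share-adjusted fit. COPB1, a COPI coatomer subunit, was at 153, 195, 152 and 141 CPM in caged and 118, 118, 108 and 139 CPM in floor-water pituitary, without overlap, and at 100 to 121 CPM and 105 to 118 CPM in the hypothalamus. Its difference was 0.477 without and 0.780 ± 0.172 (SE) with the covariates, with an edgeR adjusted p of 0.443 and a DESeq2 adjusted p of 0.000661 in the latter. COPB2, another subunit, had 0.399 and 0.687. KBTBD11, a BTB and kelch protein, had 0.186 and 1.05, and CRYBG3 had 0.615 and 1.46, so that most of their size came with the covariates. Of 56 genes of the endoplasmic reticulum and secretory pathway, 2 stood higher at an unadjusted p under 0.05 without and 8 with the covariates. The shares over all genes were 1.85% and 3.17%. The medians were 0.103 and 0.217, and SRP72, a signal recognition particle subunit, stood lower in the share-adjusted fit at -0.65. The share-adjusted median was 0.0311 without caged pituitary library 2. Without the libraries with a share over 5% it was 0.0104, with 28 members above and 28 below 0.

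Heat shock and chaperone genes had 5 of 37 members higher at an unadjusted p under 0.05 and 0 lower, against 1.85% and 5.36% of all genes. Their median was 0.155, with 30 differences above 0. DNAJB5, an HSP40 co-chaperone, was at 42.1, 105, 70.4 and 56.0 CPM in caged and 42.1, 30.6, 33.1 and 28.9 CPM in floor-water pituitary, with caged library 2 the highest, and at 50.3 to 67.8 CPM and 57.9 to 85.4 CPM in the hypothalamus. Its difference was 1.23 ± 0.326 (SE), with an edgeR adjusted p of 0.32. HSPA8, the constitutive HSP70, was at 2930, 4710, 3270 and 4170 CPM in caged and 2540, 2380, 3070 and 2920 CPM in floor-water pituitary, which overlapped, and its difference was 0.682. HSP90AA1, HSPD1, the mitochondrial HSP60, and DNAJB9, a helper of the endoplasmic reticulum chaperone BiP, had 0.574, 0.545 and 0.564. Share-adjusted, 6 members stood higher, against 3.17% of all genes, and the median was 0.22. Without the 4 libraries with a share over 5% that median was -0.13, and without caged pituitary library 2 alone 0.0332. In the fit without covariates the former omission gave 0.0927.

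Proteasome and respiratory chain lists also had medians above 0 in the fit without covariates. Of 36 proteasome genes 5 stood higher at an unadjusted p under 0.05 (1.85% of all genes did), PSMD14, PSMA3, PSMC1, PSMD6 and PSMA2, and the median was 0.23. PSMD14, the deubiquitinase of the regulatory particle, was at 104, 114, 99.3 and 96.1 CPM in caged and 83.4, 75.1, 60.5 and 81.3 CPM in floor-water pituitary, without overlap, and its difference was 0.505. Of 63 oxidative phosphorylation genes, 62 had a difference above 0 with a median of 0.273, although 3, NDUFA5, NDUFS1 and UQCRC2, reached an unadjusted p under 0.05, or 4.76% against 1.85% of all genes. Their median log2 change was -0.161 in the hypothalamus and 0.118 in the pituitary, and the median difference was 0.14 without caged pituitary library 4. That of the proteasome list was 0.143 without floor-water pituitary library 2. NDUFA5, a complex I subunit, was at 76.1, 87.7, 70 and 98.3 CPM in caged and 62.4, 57.6, 69.7 and 64.3 CPM in floor-water pituitary, and its difference was 0.592. With the covariates, 40 of the 63 were above 0 and the median was 0.0679. The share-adjusted median was -0.0585 without floor-water pituitary libraries 1 and 2 and -0.525 without the 4 libraries with a share over 5%. In the fit without covariates the same omissions gave 0.123 and 0.187, with 51 and 57 of the 63 above 0. The sign thus turned only in the share-adjusted fit, where the latter omission leaves pituitary shares that do not overlap between housings. The share-adjusted proteasome medians were 0.0992 with all libraries, and -0.03 and -0.295 under these omissions. Without covariates they were 0.0799 and 0.0891 under the same omissions.

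Ribosomal protein genes went the other way as a list. Of 65 members 63 had a difference below 0, with medians of -0.237 without and -0.255 with the covariates, but 0 reached an unadjusted p under 0.05. The former median was -0.124 without floor-water pituitary library 3 and -0.379 without caged pituitary library 4. Without floor-water pituitary libraries 1 and 2, 16 did, all lower, against 820 of 17816 lower over all genes, and the median was -0.393. In the share-adjusted fit without the 4 libraries with a share over 5%, 32 did, all lower, with a median of -0.821, while over all genes that fit held 2069 of 17641 at that level, 1031 of them lower. The same omission in the fit without covariates gave 0 members at that level and a median of -0.156. Whether members have near-identical copies that share reads was not examined, so single genes are uncertain.

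Immediate early genes, which cells switch on within minutes of a stimulus, had a median difference of 0.354 over 32 members. FOS, JUND, MAFF and DUSP5 were higher at an unadjusted p under 0.05 and none lower, against 1.85% and 5.36% of all genes. FOS was at 376, 418, 467 and 186 CPM in caged and 153, 98.2, 39.1 and 216 CPM in floor-water pituitary, and at 69.6 to 106 CPM and 54.4 to 94.6 CPM in the hypothalamus. Its groups overlapped in both tissues, and its difference was 1.21 ± 0.558 (SE), with an edgeR adjusted p of 0.683. JUND was at 168, 314, 254 and 237 CPM in caged and 128, 138, 177 and 117 CPM in floor-water pituitary, for a difference of 0.757. In the pituitary alone 11 members were higher at an unadjusted p under 0.05, against 2.9% of all genes. EGR1 and NR4A1 had differences of 1.10 and 0.95 and log2 changes of 1.48 and 2.09 in the pituitary, and NR4A1 was at 0.311 without caged pituitary library 2. The list's median was 0.202 without that library and 0.605 without floor-water pituitary library 2. Share-adjusted, 4 members stood higher, against 3.17% of all genes, with a median of 0.585. Without floor-water pituitary libraries 1 and 2, 11 did in that fit, against 966 of 17816 over all genes. In the fit without covariates and without the 4 libraries with a share over 5%, 0 members stood at an edgeR unadjusted p under 0.05 and the median was 0.249. Over all genes, 383 of 17641 were higher and 904 lower there.

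The pituitary hormone and lineage list had the lowest median of the theme lists without covariates and a median above 0 with them. Of 33 members 13 stood lower at an unadjusted p under 0.05, against 5.36% of all genes, and the median was -1.52. Without caged hypothalamus library 4, which had the highest share of pituitary transcripts, the median was -0.861, GH1 was at -2.38 and PRL at -1.97. The median log2 change was 1.34 in the hypothalamus and 0.0685 in the pituitary. Share-adjusted, 0 stood lower, GHRHR, the growth hormone-releasing hormone receptor, stood higher, and the median was 0.307. The share covariate is itself computed from pituitary-restricted genes in hypothalamus libraries, so these genes are not independent of it.

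The differences of GH1, PRL, POMC, CGA and FSHB turned sign with the covariates, and that of TSHB did not. GH1 was at 2790, 24.8, 2280 and 14300 CPM in caged and 988, 49.5, 181 and 264 CPM in floor-water hypothalamus, and at 152000, 61100, 83900 and 94400 CPM and 98100, 68900, 173000 and 104000 CPM in the pituitary. The groups overlapped in both tissues, and its difference was -3.89 without and 1.44 with the covariates. PRL, prolactin, was at 51400, 70400, 116000 and 52800 CPM in caged and 37800, 39800, 29900 and 36900 CPM in floor-water pituitary, without overlap. In the hypothalamus it was at 1150, 8.82, 2630 and 8830 CPM in caged and 465, 20.2, 62.0 and 93.3 CPM in floor-water libraries, and its difference was -3.29 without and 2.63 ± 1.28 (SE) with the covariates, where the edgeR adjusted p was 0.714. POMC, the precursor of adrenocorticotropin, went from -3.59 to 1.58, CGA, the shared glycoprotein hormone subunit, from -3.61 to 2.09, and FSHB, the follitropin subunit, from -4.61 to 0.997. TSHB, the thyrotropin subunit, stood at -0.540 and -0.326. TBX19, the corticotroph lineage factor, went from -4.14 to -0.067, and ESR1, an oestrogen receptor, from -1.65 to -0.345. LHB was not analysed here.

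**Figure D5:**
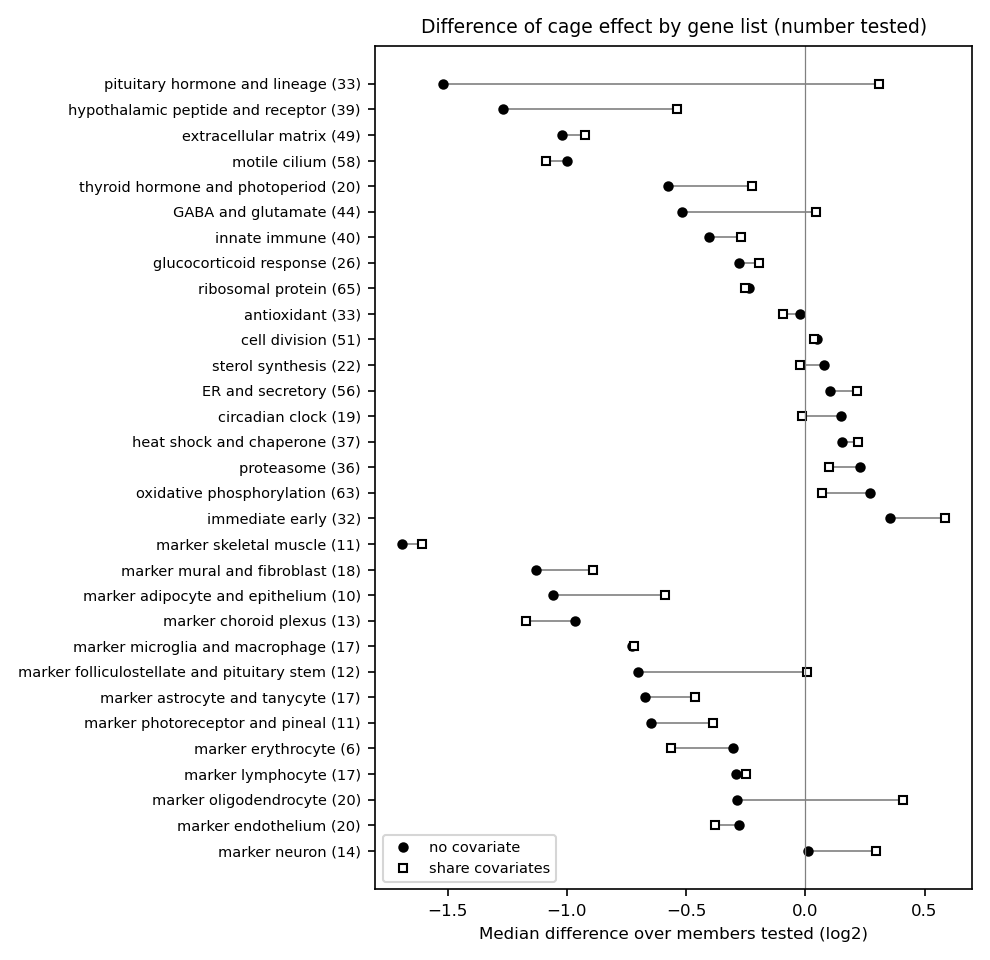
Median tissue difference of the cage effect (log2, pituitary minus hypothalamus) over the tested members of each gene list (number in parentheses), without covariates (filled circles) and with share covariates (open squares). The pituitary hormone list moves from -1.52 to 0.307, whereas the extracellular matrix list stays at -1.02 and -0.925 and the motile cilium list at -1 and -1.09.

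Hypothalamic peptide and receptor genes had 10 of 39 members lower at an unadjusted p under 0.05, against 5.36% of all genes, with a median of -1.27. With the covariates 1 was lower and 2 were higher, against 3.93% and 3.17% of all genes, with a median of -0.539. In the fit without them, 1 stood lower and 1 higher without floor-water pituitary libraries 1 and 2, with a median of -0.409 (-0.302 without library 2 alone, and -2.37 without caged pituitary library 2). Over all genes, 820 of 17816 were lower and 471 higher without floor-water pituitary libraries 1 and 2. Without caged hypothalamus libraries 2 and 4, 3 members stood lower in the fit without covariates, against 770 of 17871 over all genes. The median was then -1.49, with 30 of the 39 below 0. In the share-adjusted fit the latter omission gave a median of 0.133. Several genes had their extreme value in 1 library. AGRP, the agouti-related feeding peptide, was at 0, 0.811, 12.9 and 0.186 CPM in caged and 0 to 0.561 CPM in floor-water hypothalamus, and at 0.467, 15.5, 0.963 and 0.113 CPM in floor-water pituitary, and its difference was -6.88, which was -3.51 without caged hypothalamus library 3 and -3.84 without floor-water pituitary library 2. SST, somatostatin, which inhibits growth hormone release, was at 0.224, 111, 0.562 and 3.91 CPM in floor-water and 0.572, 9.07, 0.371 and 0.339 CPM in caged pituitary, and its difference of -4.07 was 0.122 without floor-water pituitary library 2. MC4R and LEPR, the melanocortin 4 and leptin receptors, stood at -3.21 and -3.46, and at -0.554 and -0.883 with the covariates. MC4R was at -0.743 without floor-water pituitary library 2, and LEPR at -2.24 without caged hypothalamus library 4. NPVF encodes the gonadotropin-inhibitory hormone precursor and was at 16.9, 1.61, 371 and 177 CPM in caged and 112, 0.236, 1.45 and 1.91 CPM in floor-water hypothalamus, and in the pituitary at 22.8 CPM in caged library 2 and at 0 to 1.03 CPM in the other 7. Its difference was 1.40 ± 2.87 (SE) without the covariates, and -6.31 in that fit without caged pituitary library 2. With the covariates it was 8.10 ± 1.90 (SE), and 5.18 to 9.11 when 1 library was left out. CRH, corticoliberin, was at 51.1, 28.5, 29.8 and 11.0 CPM in caged and 76.0, 116, 83.9 and 27.1 CPM in floor-water hypothalamus, which overlapped, and its difference was 1.94 and 2.09 in the 2 fits, with unadjusted p of 0.0739 and 0.0974. TRH, thyroliberin, and VIP, which in birds drives prolactin release, stood at -1.27 and -1.69. TRH was at -0.821 without caged hypothalamus library 3 and at -2.91 without floor-water hypothalamus library 1, and VIP was at -3.38 without caged pituitary library 2 and at -0.346 without floor-water pituitary library 2. AVP was not analysed here.

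Thyroid hormone and photoperiod genes had 5 of 20 members lower at an unadjusted p under 0.05 (among them CGA, SLCO1C1, TTR and CRYM), against 5.36% of all genes. Their median was -0.576. With the covariates 2 were lower (among them SLCO1C1), against 3.93% of all genes, with a median of -0.224. The former median was -0.358 without caged hypothalamus library 4, and the share-adjusted median was 0.142 without caged pituitary library 2. SLCO1C1, a thyroxine transporter, was at 3.26, 44.2, 109 and 1.18 CPM in caged and 1.05, 0.531, 0.185 and 0.293 CPM in floor-water hypothalamus, and at 2.92 to 8.50 CPM and 2.33 to 36.7 CPM in the pituitary. All caged hypothalamus libraries were above all floor-water ones, and its difference was -7.50 without and -6.85 with the covariates. Its near copy LOC101799801, at 4.28, 5.18, 6.49 and 3.20 CPM in caged and 1.87, 1.61, 2.20 and 1.31 CPM in floor-water hypothalamus, had -2.84, and how reads were split between the pair is not known, so both are uncertain. CRYM, a thyroid hormone-binding protein of tanycytes, stood at -3.36 with caged hypothalamus library 3 at 942 CPM and the other 3 at 85.1 to 180 CPM. It was at -1.96 without that library and at -1.83 without floor-water pituitary library 2, which had 389 CPM. TTR was at -6.90, at -2.56 without caged hypothalamus library 2 and at -3.96 without floor-water pituitary library 4. DIO2, which makes active thyroid hormone, had 0.137 and 0.776, and DIO3, which degrades it, -2.34 and -0.468, and neither reached an unadjusted p under 0.05. DIO3 was at -0.143 without caged hypothalamus library 3, and DIO2 turned sign when any of several libraries was left out.

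Glucocorticoid response genes had 4 of 26 members lower at an unadjusted p under 0.05 (TSC22D3, CEBPD, ANGPTL4 and HSD11B1), against 5.36% of all genes. Their median was -0.279. It was -0.0924 without caged hypothalamus library 3 and -0.586 without caged pituitary library 4. Without floor-water pituitary libraries 1 and 2 it was 0.211, with 3 members higher and 2 lower (471 and 820 of 17816 over all genes). With the covariates 2 were lower, against 3.93% of all genes, and the median was -0.193. In that fit the same omission gave 5 higher and 1 lower (966 and 832 over all genes). TSC22D3, the glucocorticoid-induced leucine zipper, was at 147, 158, 118 and 237 CPM in caged and 242, 318, 250 and 180 CPM in floor-water pituitary, and at 182 to 283 CPM and 161 to 247 CPM in the hypothalamus. Its groups overlapped in both tissues, and its difference was -0.737 without and -1.02 with the covariates. FKBP5 and NR3C1, a chaperone of the glucocorticoid receptor and the receptor itself, stood at -0.521 and 0.117, with unadjusted p of 0.436 and 0.66, and FKBP5 was at -0.047 without caged hypothalamus library 4. Among 19 clock genes, with a median of 0.15 that was -0.0132 with the covariates, PER2, CRY1 and ARNTL2 stood lower, at -0.769, -0.4 and -0.872. Of the 19, 3 were lower at an unadjusted p under 0.05 without the covariates, against 5.36% of all genes. With the covariates 0 were lower and 2 higher, against 3.93% and 3.17% of all genes. In the fit without covariates, 0 stood at that level either way without floor-water pituitary libraries 1 and 2. PER2 was at 27.4, 29.4, 31.6 and 20.2 CPM in caged and 57.0, 67.5, 38.6 and 45.0 CPM in floor-water pituitary, without overlap, and at 31.0 to 46.2 CPM and 41.6 to 53.3 CPM in the hypothalamus. PER3 stood at -0.641, with caged hypothalamus libraries at 14.3 to 24.1 CPM and floor-water ones at 9.27 to 14.3 CPM, and NR1D2, the nuclear receptor REV-ERB beta, at -0.127. HLF and CSNK1D stood at 0.577 and 0.301, and at 0.343 and 0.151 without caged pituitary library 4 and floor-water pituitary library 3, respectively. The clock median also turned sign without caged pituitary library 1, at -0.0517. RORB was at 0 CPM in all floor-water and in 3 of 4 caged pituitary libraries, so no fold is given.

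The other lists held fewer members at an unadjusted p under 0.05. Innate immune genes had 5 of 40 lower (C1S, C1R, C7, CFD and C1QC, all of the complement system), against 5.36% of all genes, and a median of -0.403. That median was -0.149 without floor-water pituitary libraries 1 and 2 and -0.158 without caged hypothalamus libraries 2 and 4. With the covariates 5 were lower, against 3.93% of all genes, with a median of -0.269. The following 3 lists had a share of lower members below the 5.36% of all genes, which is no result about them. GABA and glutamate genes had 2 of 44 lower, GRIA3 and SLC1A2, with medians of -0.516 without (-0.186 without floor-water pituitary library 2) and 0.045 with the covariates. Antioxidant genes had 1 of 33 lower, SOD3, the extracellular superoxide dismutase, at -2.14, and GPX3, a plasma glutathione peroxidase, at -0.283 was at higher CPM in all caged than in all floor-water hypothalamus libraries. Cell division genes had 1 of 51 lower, MKI67, a proliferation marker at 0 CPM in all 4 caged pituitary libraries and at 0 to 0.261 CPM in the floor-water ones. Sterol synthesis genes had 1 of 22 higher (1.85% of all genes were), HMGCS1, at 0.69. The medians were 0.0483 for cell division, 0.0784 for sterol synthesis and -0.0238 for antioxidant genes, and each turned sign when 1 library was left out. The counts of lower markers that follow stand against the 5.36% of all genes, and those of higher ones against 1.85%. Among marker lists, astrocyte and tanycyte markers had a median of -0.671 over 17 members with 5 lower, and -0.334 without floor-water pituitary library 2. Microglia and macrophage markers had -0.726 over 17 with 1 lower, and -0.277 with 0 lower without floor-water pituitary libraries 1 and 2. Skeletal muscle markers had -1.69 over 11 with 3 lower, with floor-water pituitary library 1 at a mean log2(FPKM + 1) of 2.30 and the other 3 of its group at 0.548 to 1.16. Their median was 0.159 without that library, -0.00465 with 0 lower without floor-water pituitary libraries 1 and 2, and -3.02 without caged pituitary library 2, so its sign rests on floor-water pituitary library 1. Folliculostellate and pituitary stem markers went from -0.7 to 0.00571 with the covariates, and stood at -0.391 without caged hypothalamus library 4 and at 0.0142 without caged hypothalamus libraries 2 and 4. Adipocyte and epithelium markers had -1.06 over 10, and -0.559 without caged hypothalamus library 4. Photoreceptor and pineal markers had -0.647 over 11, and -0.261 without caged hypothalamus libraries 2 and 4. Oligodendrocyte markers went from -0.285 to 0.408 with the covariates, and leaving out 1 library gave -1.18 (caged pituitary 2) to -0.138 (floor-water pituitary 4) in the fit without them. Endothelium markers had -0.279 over 20 with 2 lower and 1 higher, and -0.524 (without caged pituitary 4) to -0.137 (without caged pituitary 2). Neuron markers (0.00971 over 14), erythrocyte markers (-0.305 over 6) and lymphocyte markers (-0.29 over 17) had medians whose sign turned when 1 library was left out, and the last 2 were also above 0 under quantile scaling. The part of these cell types in the results above was not tested.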

How the data were processed

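The deposited table holds, for 24263 genes and 16 libraries, raw read counts and FPKM values made by the authors. Upstream, StringTie 1.3.4d, HISAT2, cutadapt and DESeq2 are listed in the submitters' processing notes. The genome build is not given in the sources used here, so no coordinates are printed. The deposited counts were used as they stand. Of the 24263 rows, 3356 had no count in any library, and 17945 IDs were matched to a RefSeq gene table (assembly IASCAAS_PekinDuck_T2T) for names.

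The tissue difference was tested in edgeR 4.0.16 (R 4.3.3) by the quasi-likelihood F test with TMM scaling, filterByExpr and Benjamini-Hochberg adjustment over 17010 genes, threshold 0.05. The share-adjusted fit adds 2 covariates, the log2 share centred within each tissue. A library's share is the median, over genes restricted to the other tissue, of its CPM as a percent of the mean CPM there. Restricted genes had a mean of at least 10 CPM and a lowest library at least 100 times the lowest of the other tissue. SE is the log2 difference divided by the square root of F. The deposited FPKM values gave the list levels, as means of log2(FPKM + 1), and an alternative fit with limma 3.58.1, and DESeq2 1.42.0 was another alternative. The code was checked on simulated counts for the sign of planted differences and for false calls. Recovery of planted differences was required only at a spread smaller than that of these data. The power of the test at the spread of these data is not reported here.

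The 31 gene lists are described by counts and medians and were not tested. The members, lists and tests were chosen with earlier results of these data known. Genes were named by rule: the smallest p in each direction in both fits, among genes within 4 times between tissues, and in the lists with the highest and lowest medians, plus a set of hormone, stress and clock genes. Other members of a list at an unadjusted p under 0.05, genes whose groups did not overlap and further examples were named after their values were seen. Library pairs within a group differed beyond counting noise, so none was taken as a duplicate. Leaving out caged hypothalamus libraries 2 and 4, or floor-water pituitary libraries 1 and 2, was chosen after seeing the data. Results for some single genes are not reported here.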

Additional observations from a re-analysis of the deposited data

Results flagged for a closer look

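Of 328 groups of 4 libraries examined, 32 (9.76%) held 1 library far from the other 3. The distance was taken on unlogged values, where 1 library above 0 always counts as far if the other 3 are at 0. CHRNA6 and RORB in caged pituitary are such groups. The groups also share the same libraries, so whether 9.76% is more than chance gives cannot be told. The causes of these distances were not tested.

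Caged pituitary library 2 had a share of hypothalamus transcripts of 5.44%, against 0.141% to 0.428% in the other 3. It was also the highest of its group for NPVF at 22.8 CPM (others 0 to 0.0646), SST at 9.07 CPM (others 0.339 to 0.572), MC4R at 0.881 CPM (others 0.291 to 0.362), CHRNA6 at 0.0691 CPM (others 0) and TBX19 at 126 CPM (others 52.4 to 62.0). Floor-water pituitary library 2, with a share of 7.20%, was the highest of its group for SST at 111 CPM (others 0.224 to 3.91), AGRP at 15.5 CPM (others 0.113 to 0.963), MC4R at 11.1 CPM (others 0.299 to 0.723), CRYM at 389 CPM (others 44.4 to 46.1), DIO3 at 21.2 CPM (others 5.21 to 7.38), ADAMTS8 at 70.1 CPM (others 52.8 to 54.8) and CFAP43 at 4.91 CPM (others 3.77 to 3.89).

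Caged hypothalamus library 2 had TTR at 12800 CPM (others 5.34 to 408) and TF at 2180 CPM (others 233 to 335). Caged hypothalamus library 3 had CRYM at 942 CPM (others 85.1 to 180), AGRP at 12.9 CPM (others 0 to 0.811) and DIO3 at 14.2 CPM (others 0.4 to 1.23). In caged hypothalamus library 4, which had the highest share of pituitary transcripts, LEPR was at 19.3 CPM (others 2.05 to 4.15).

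Floor-water hypothalamus library 1 was the highest of its group for NPVF at 112 CPM (others 0.236 to 1.91), PRL at 465 CPM (others 20.2 to 93.3), CGA at 115 CPM (others 5.84 to 22.1) and PER2 at 53.3 CPM (others 41.6 to 43.4). In floor-water hypothalamus library 2, FMNL1 was highest at 75.1 CPM (others 52.9 to 54.5) and ESR1 lowest at 0.786 CPM (others 2.71 to 2.91). In floor-water hypothalamus library 3, COL6A2 was at 2.74 CPM (others 1.45 to 1.62) and PSMA3 at 149 CPM (others 127 to 128).

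In floor-water pituitary, TF was at 400 CPM in library 1 (others 101 to 132), LMCD1 at 103 CPM (others 61.0 to 65.9) and TEKT3 at 37.0 CPM (others 11.2 to 14.7) in library 3, and TTR at 18.8 CPM in library 4 (others 0.422 to 1.06). RORB was at 0.129 CPM in caged pituitary library 3 and at 0 in the other 3.

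For SPAG6 and AK7 every caged library lay above every floor-water library in the hypothalamus and below in the pituitary. The differences were -2.059 and -1.198, and the edgeR test of the difference gave adjusted p of 0.18 and 0.298.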

How the results depend on the processing

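The count of genes at an adjusted p under 0.05 was 0 in both edgeR fits. Without covariates it was 131 with DESeq2, 2 without the libraries with a share over 5% (SCAMP1 and LOC113843915), 5 without caged hypothalamus libraries 2 and 4 (RLIM, MAP2K4, LYSMD4, AGR3 and LOC106015636), and 0 to 4 when 1 library was left out. Those calls came without caged hypothalamus library 2 (1), caged pituitary library 2 (3: CHRNA6, GRIA3 and LOC113843915) and floor-water pituitary library 3 (4: SPAG6, CTXND1, GRPR and LOC101799801). With the covariates it was 63 with DESeq2, 1 (GPR37) without the libraries over 5%, and 0 to 0 when 1 library was left out. In the fit without covariates, 1226 of 17010 genes stood at an unadjusted p under 0.05, and 1041 to 1478 when 1 library was left out. In limma on log2(FPKM + 1), 801 of 13067 did. A smaller set of 10415 genes was within 4 times between tissues and at a mean of at least 1 CPM in every group, and 508 of these did. In the share-adjusted fit, 1207 of 17010 did, and 795 to 1509 when 1 library was left out. Limma on FPKM with pseudocounts of 1, 0.1 and 0.5 gave 774, 764 and 765 of 13067. The count was 756 of the same 10415 genes, 790 of 17871 without caged hypothalamus libraries 2 and 4, and 2069 of 17641 without the libraries over 5%. These counts stand over unlike numbers of genes, so a lower count is not by itself a lower share. The part of the genes at an unadjusted p under 0.05 that was higher was 25.6% without covariates, against 42% with quantile scaling, 43.7% within 4 times, 36.5% without floor-water pituitary libraries 1 and 2, and 11.4%, 9.08% and 10.5% on FPKM. It was 44.7% with covariates, against 32.1% with upper quartile scaling, 55.2% within 4 times and 34.7% on FPKM with a pseudocount of 0.1.

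With a replicate block of same-numbered tissues as 1 bird, 981 genes stood at an unadjusted p under 0.05 without and 745 with the covariates, and with the title number as a block 1121 did without them, with 0 adjusted calls each. Deviations of same-numbered libraries from their group means correlated at 0.105 to 0.198 in caged and 0.0391 to 0.202 in floor-water ducks, over 0.1 in 6 of 8 pairs. The best match was the own number for 7 of 8 hypothalamus and 8 of 8 pituitary libraries, a hint from the data, and the labels do not state a shared bird. Under the bird block NPVF stood at -6.417 and DIO2 at -0.055, and under the title number block NPVF at -1.739.

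Other signs turned as follows, and the cause was not tested. NPVF was at -2.927 with quantile scaling, -3.555 with voom, and -2.294, -3.103 and -2.554 on FPKM with pseudocounts of 1, 0.1 and 0.5. DIO2 was at -0.175, -0.162, -0.12, -0.143 and -0.132 under the same settings. CTXND1 was at 0.062 and 0.002 with pseudocounts of 1 and 0.5, and at 0.379 and 0.416 with the covariates as well. NR1D2 was at 0.095 without the libraries over 5%, FKBP5 at 0.374 without caged hypothalamus libraries 2 and 4, and VIP at 0.019 without floor-water pituitary libraries 1 and 2. The share covariates turned FSHB to 0.997, GH1 to 1.444, PRL to 2.625, POMC to 1.583, CGA to 2.086, TRH to 0.745 and SST to 0.176. In the fit without covariates, leaving out 1 library gave NPVF -6.308 to 2.518, SST -6.664 to 0.122, DIO2 -0.3 to 0.452 and NR3C1 -0.042 to 0.233.

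With 4 libraries a group, precision is set by the spread between libraries rather than by depth, except for genes near 0 counts such as CTXND1, CHRNA6, MKI67 and RORB. The share covariates are computed from the same libraries, differ between housings, and cost 2 residual degrees of freedom, so neither fit separates housing from the share of other-tissue transcripts.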
